A study of Homo sapiens with 3 samples.

Results

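The genes described here are the subunits and accessory proteins of the vacuolar H+-ATPase (V-ATPase) and the cathepsins, measured by RNA sequencing in Caki-1, a human cell line established from renal carcinoma. They were chosen by symbol, as protein-coding genes whose names begin with ATP6V or ATP6AP or consist of CTS and 1 further letter. This rule found 40 of the 44591 genes in the deposited table, 25 of the V-ATPase and 15 cathepsins, and used no measured value. Control cells received a non-targeting siRNA (si-Control), and the other 2 conditions each received a different siRNA to RBCK1. The latter are called si-RBCK1 #1 and #2 here and si-HOIL-1#1 and #2 in the submitters' labels, HOIL-1 being another name of the gene, and RNA was taken 48 h later. The siRNAs of the labels and of the study's list were matched by their number alone. RBCK1 is a RING-between-RING ubiquitin ligase and a subunit of the linear ubiquitin chain assembly complex. All 3 conditions share the cell line and the transfection, and there was 1 library per condition, so differences between conditions could not be set against a spread between replicates and no p-value is given. The comparison asked how the mRNA levels of the lysosomal acidification machinery and its acid proteases differed after RBCK1 depletion.

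The V-ATPase is a rotary proton pump that acidifies lysosomes, endosomes and secretory vesicles. Its cytosolic V1 sector hydrolyses ATP and drives a ring in the membrane V0 sector, which carries the protons, and reversible detachment of V1 from V0 sets its activity. Most cathepsins are proteases made as inactive precursors and matured in the acid lumen of the lysosome, and they fall into cysteine, aspartic and serine classes. In the kidney, the V-ATPase is best known from acid-secreting intercalated cells, which use tissue-restricted forms of several subunits, while cathepsins and the ubiquitous forms of the pump occur in nearly all cells. Many genes of both families are regulated by the MiT/TFE transcription factors, such as TFEB, which bind a palindrome with the core CACGTG.

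The sequences that bear on these comparisons are the siRNAs, which define the treated libraries, and promoters that hold the MiT/TFE core letters. The sense strands of the siRNAs, as the study lists them under these numbers, are printed 5′ to 3′ with capitals marking the letters complementary to guide positions 2 to 8 (the seed).
si-RBCK1 #1: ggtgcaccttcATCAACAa
si-RBCK1 #2: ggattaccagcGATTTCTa

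The capital letters of si-RBCK1 #1 occur in the longest protein-coding transcript of 5 of the 32 genes of the 2 families that were expressed (defined below), and in 23.8% of 10568 genes searched. Those of si-RBCK1 #2 occur in 10 of the 32, and in 29.2% of the 10568. ATP6V1C1 holds 0 matches to si-RBCK1 #1 and 2 to si-RBCK1 #2, and ATP6V0D1 holds 0 matches to either. ATP6V1C1 and ATP6V0D1 are named here because of their differing levels in the siRNA libraries. Of the other genes at least 1.5-fold lower in a library, CTSS holds 2 matches to si-RBCK1 #1 and 0 to si-RBCK1 #2. CTSO holds 0 and 1, and ATP6AP1L and ATP6V1E2 hold 0 to either. The ATP6AP1L transcript searched has 758 bases, while the smallest length that fits the levels of this gene is 2346 bases. Its 0 matches therefore do not cover the whole length behind its levels. A part of such matches in the levels was not tested.

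Promoters from RefSeq (GRCh38.p14), from 250 bases before to 50 after the start of the gene, were at hand for 27 of the 40 genes. The letters CACGTG, which read the same on both strands, occur in 7 of these 27 promoters (25.9%), against 11.0% of 14511 protein-coding genes of the deposited table. Among expressed genes they occur in 7 of 21 (33.3%), against 13.3% of 8546. The longer TCACGTG, which contains CACGTG, was searched on both strands. It occurs in the same number of promoters, 7 of 27 and 7 of 21, against 5.91% and 7.73%. In the related lists described below, CACGTG occurs in 25.9% of promoters of other hydrolases and 25.0% of those of membrane proteins and transporters. It occurs in 27.8% for MiT/TFE factors and regulators, 38.5% for mannose 6-phosphate sorting, 0 of 9 for V-ATPase partners and 0 of 2 for cystatins. The 7 genes are ATP6V0B, ATP6V0D1, ATP6V0E2, ATP6V1G1, CTSA, CTSD and CTSF. Of these, 4 promoters are printed as the 150 bases before the start, with CACGTG in capitals: ATP6V0D1 and ATP6V0E2, whose levels differed by at least 1.5-fold between libraries, CTSD, the cathepsin with the highest level, and CTSA, which holds the core more than once. The promoters of ATP6V0B and CTSF, not printed, also hold 2 matches each. The printed stretch of ATP6V0D1 lies at chr16:67481158-67481307 on the minus strand and that of ATP6V0E2 at chr7:149872818-149872967 on the plus strand. That of CTSD lies at chr11:1763928-1764077 on the minus strand and that of CTSA at chr20:45891185-45891334 on the plus strand.
ATP6V0D1: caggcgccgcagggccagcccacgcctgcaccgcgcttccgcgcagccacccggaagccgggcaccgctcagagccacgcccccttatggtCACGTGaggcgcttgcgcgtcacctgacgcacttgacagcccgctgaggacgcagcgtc
ATP6V0E2: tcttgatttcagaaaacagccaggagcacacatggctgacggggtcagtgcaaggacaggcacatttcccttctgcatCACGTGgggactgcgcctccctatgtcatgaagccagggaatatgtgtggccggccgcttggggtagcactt
CTSD: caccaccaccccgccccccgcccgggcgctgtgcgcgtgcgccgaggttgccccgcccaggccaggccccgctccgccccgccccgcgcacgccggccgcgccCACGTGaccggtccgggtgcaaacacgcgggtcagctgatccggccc
CTSA: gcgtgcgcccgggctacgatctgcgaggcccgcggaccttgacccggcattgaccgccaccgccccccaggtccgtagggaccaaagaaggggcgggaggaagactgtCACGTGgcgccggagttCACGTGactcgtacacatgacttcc

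The core begins 59 bases before the start in ATP6V0D1, 72 in ATP6V0E2 and 47 in CTSD, and 42 and 25 bases before it in CTSA. A match of letters is a description of these windows and does not show that a factor binds there.

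Levels are given as deposited in RPKM, read numbers divided by the length of the gene and the size of the library, which allows genes to be compared per length. The libraries were scaled to 36926834 reads (si-Control), 40442939 reads (si-RBCK1 #1) and 36344428 reads (si-RBCK1 #2). RBCK1 itself was at 33.3 RPKM with si-Control, 9.97 with si-RBCK1 #1 and 12.3 with si-RBCK1 #2, lower in both libraries labelled as depleted. Of 7 markers of intercalated cells, 0 reached 1 RPKM in any library, and their summed level was 0.0872 to 0.203 RPKM. Of 8 macrophage markers and 6 markers of neutrophils, T and NK cells, 0 reached 1 RPKM, with CD3E and ELANE at 0. The epithelial markers KRT8, KRT18 and PAX8 were expressed, as was VIM. PAX2 and CA9, a defining marker of clear cell renal carcinoma (the labelled tissue), were at or near 0. The epithelial marker EPCAM stayed under 1 RPKM, at 0.331 with si-Control, 0.561 with si-RBCK1 #1 and 0.432 with si-RBCK1 #2. Of 5 proximal tubule markers, 2 reached 1 RPKM in a library (GGT1 and ANPEP). The summed level of the 8 tubule epithelial markers was 308 RPKM with si-Control, 420 with si-RBCK1 #1 and 546 with si-RBCK1 #2. That of the 4 clear cell carcinoma markers was 684, 1548 and 1425 RPKM, most of it VIM. Within these lists, PAX8 (124, 82.5 and 107 RPKM) and NDUFA4L2 (2.12, 0.645 and 0.741 RPKM) were lower in both siRNA libraries. The part of these shifts in the results below was not tested. In bulk RNA, fewer cells of a type and less RNA per cell cannot be told apart.

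A gene was counted as expressed when its mean over the 3 libraries was at least 1 RPKM, which 12403 genes and 32 of the 40 reached, 20 of the V-ATPase and 12 cathepsins. The 8 others were the subunit forms ATP6V1B1, ATP6V1C2, ATP6V1G2, ATP6V1G3 and ATP6V0D2, and the cathepsins CTSE, CTSG and CTSW, forms known from particular cell types such as intercalated cells, neurons, osteoclasts, gastric epithelium or leukocytes. ATP6V1G3 was at 0 in all 3 libraries, and the highest value of the other 7 was 0.535 RPKM, for ATP6V1C2 with si-Control. The expressed V-ATPase genes thus included the ubiquitous forms, and of the restricted forms also ATP6V1E2, ATP6V0E2 and ATP6V0A4. The last is the kidney form of the a subunit and was close to the limit at 1.02 RPKM with si-Control, 0.921 with si-RBCK1 #1 and 1.07 with si-RBCK1 #2. The plot of levels shows all 40 genes.

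**Figure D1:**
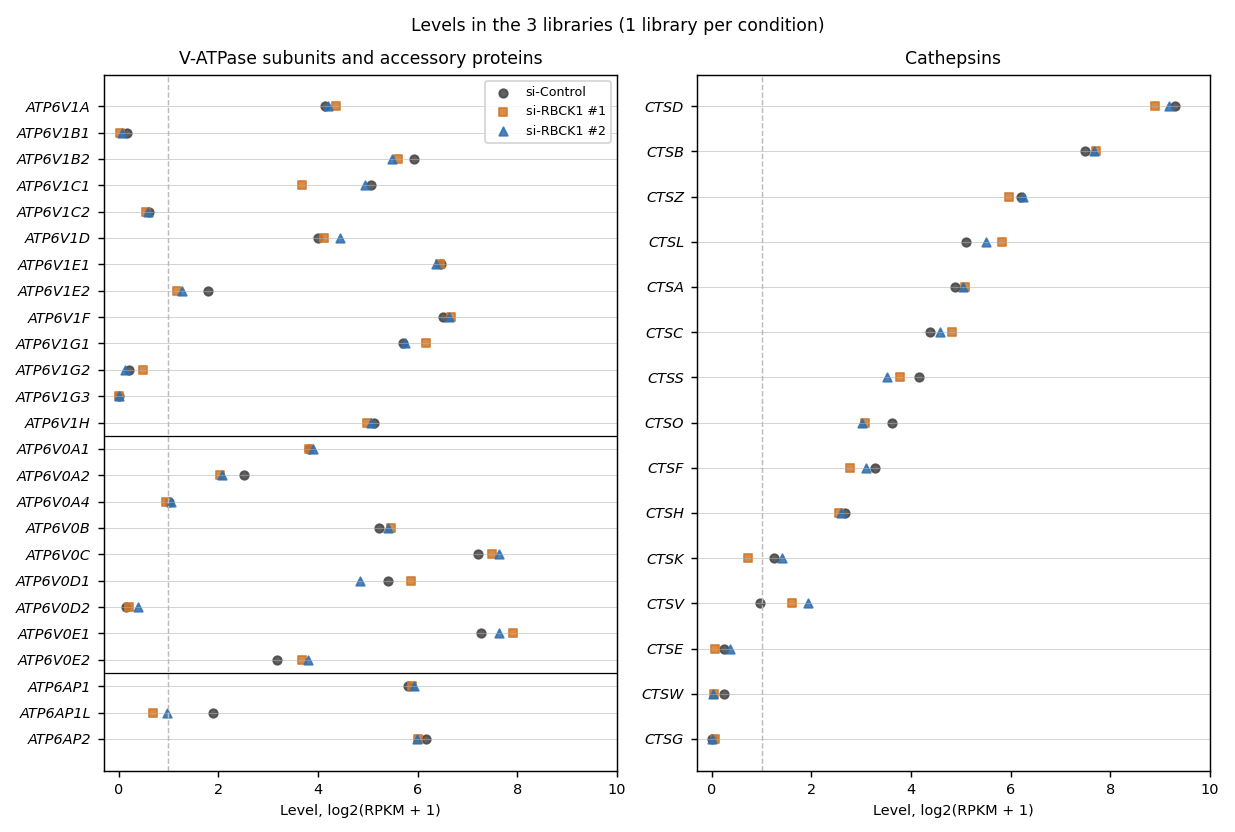
Level of each gene on the log2(RPKM + 1) scale in the 3 libraries (1 library per condition), with the V1, V0 and accessory genes of the V-ATPase separated by lines on the left and the cathepsins on the right. The dashed line marks 1 RPKM, and ATP6V1C1 and ATP6V0D1 are the expressed V-ATPase genes whose si-RBCK1 #1 and #2 symbols lie farthest apart.

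For each gene, the log2 ratio of an siRNA library to si-Control was taken after adding 1 RPKM to both levels, so that differences of genes at low levels appear smaller than they are. Neither family moved as a block. The median log2 ratio of the 32 expressed genes was -0.01 with si-RBCK1 #1 (16 higher and 16 lower, against 51.5% and 48.4% of all genes) and 0.04 with si-RBCK1 #2 (18 higher and 14 lower, against 53.5% and 46.4%). Over all 12403 genes the medians were 0.02 and 0.03. The 20 V-ATPase genes had medians of 0.04 and 0.04, and the 12 cathepsins had medians of -0.18 and 0.11. The signs of several of these medians depend on the scaling or filter, as given at the end.

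With si-RBCK1 #1, 3 of the 32 genes were at least 1.5-fold higher than in si-Control (ATP6V0E1, CTSL and CTSV), where 12.1% of all expressed genes were. Another 3 were at least 1.5-fold lower (ATP6V1C1, ATP6AP1L and ATP6V1E2), against 11.6% of all genes. ATP6V1C1 and ATP6AP1L were also at least 2-fold lower, 2 of 32, against 3.27%, and 0 genes were at least 2-fold higher, against 2.91%. With si-RBCK1 #2, 2 genes were at least 1.5-fold higher (ATP6V0E2 and CTSV), against 11.3%, and 3 were at least 1.5-fold lower (ATP6AP1L, CTSS and CTSO), against 9.32%. At 2-fold, 0 of the 32 were called with si-RBCK1 #2, where 2.5% of all genes were higher and 2.27% were lower, and 2 were called with a pseudocount of 0.1 RPKM. At 1.5-fold the shares of the families are near or below those of all genes, and nothing is read from the few genes past 2-fold. The 2 comparisons share the si-Control library, and their values are therefore given side by side only.

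**Figure D2:**
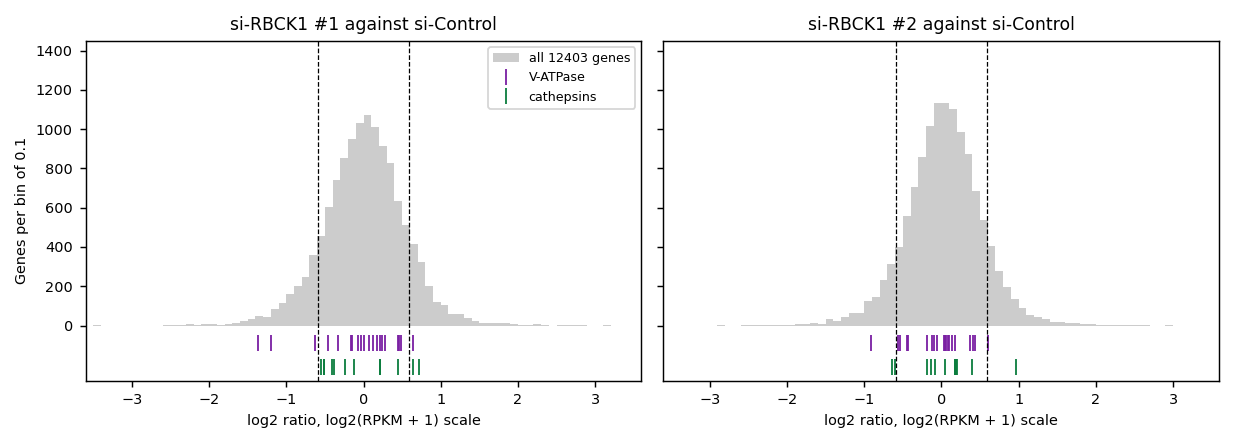
Histogram of the log2 ratio to si-Control on the log2(RPKM + 1) scale over all 12403 expressed genes in bins of 0.1, for si-RBCK1 #1 (left) and si-RBCK1 #2 (right). Ticks below the histogram are the V-ATPase genes and the cathepsins, dashed lines mark 1.5-fold, and most ticks lie between those lines, with ATP6V1C1 farthest to the left for si-RBCK1 #1.

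Among the V1 subunits, ATP6V1C1 stood apart in 1 library. It encodes subunit C, which links the peripheral stalks to V0 and is released when the pump comes apart. ATP6V1C1 (hg19 chromosome 8, 104033248 to 104085285, plus strand) was at 32.4 RPKM with si-Control, 11.9 with si-RBCK1 #1 and 29.7 with si-RBCK1 #2. The level was low with si-RBCK1 #1 alone. On recovered reads, 6821, 2745 and 6162 in the same order, the log2 ratio to si-Control was -1.44 for si-RBCK1 #1 (exact Clopper-Pearson interval of 95%, covering counting error only, -1.51 to -1.38). For si-RBCK1 #2 it was -0.12 (-0.17 to -0.07), and si-RBCK1 #2 exceeded si-RBCK1 #1 by 1.32 on this scale (1.26 to 1.39). The other C form, ATP6V1C2, was at 0.535, 0.473 and 0.501 RPKM, so that ATP6V1C1 made up 98.4%, 96.2% and 98.3% of the summed C level.

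The catalytic head of V1 consists of A and B subunits. ATP6V1A, the catalytic subunit, was at 16.8 RPKM with si-Control, 19.6 with si-RBCK1 #1 and 17.5 with si-RBCK1 #2. ATP6V1B2, the ubiquitous B form, was at 60.2, 47.9 and 44.1 RPKM, with log2 ratios of -0.33 and -0.44. It was thus lower in both siRNA libraries, but by less than 1.5-fold.

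The stalk subunits mostly stayed near the control level. ATP6V1E1 of the peripheral stalk, ATP6V1F of the central stalk and ATP6V1H (subunit H) had log2 ratios between -0.15 and 0.18 in both comparisons. ATP6V1G1, a peripheral stalk subunit, was at 51.0 RPKM with si-Control, 70.4 with si-RBCK1 #1 and 52.6 with si-RBCK1 #2. ATP6V1D of the central stalk was at 15.1, 16.5 and 20.7 RPKM. The higher value thus lay in si-RBCK1 #1 for ATP6V1G1 and in si-RBCK1 #2 for ATP6V1D. ATP6V1E2, the form of E known from testis, was at 2.47, 1.24 and 1.40 RPKM (145, 80 and 81 reads), lower in both siRNA libraries, but it made up only 2.74% of the summed E level in si-Control.

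In the membrane sector, ATP6V0D1 differed in opposite directions. It encodes the ubiquitous d subunit, which couples the central stalk to the proteolipid ring. ATP6V0D1 (chromosome 16, 67471917 to 67515089, minus strand) was at 41.5 RPKM with si-Control, 57.1 with si-RBCK1 #1 and 27.7 with si-RBCK1 #2. It was above the control with si-RBCK1 #1 and below it with si-RBCK1 #2. On reads (2559, 3856 and 1679), the log2 ratios to si-Control were 0.46 (0.39 to 0.53) and -0.59 (-0.68 to -0.50), and si-RBCK1 #2 lay below si-RBCK1 #1 with a log2 ratio of -1.05 (-1.13 to -0.96). ATP6V0D2, the d form known from osteoclasts and kidney, was at 0.103, 0.156 and 0.313 RPKM. On the log2(RPKM + 1) scale, ATP6V1C1 and ATP6V0D1 were the 2 of the 32 expressed genes that differed at least 2-fold between the siRNA libraries, where 1.38% of all expressed genes (171) and 0.362% of the protein-coding ones (39 of 10775) did so. On reads without the added 1 RPKM, the low-level CTSK also passed 2-fold between them, with a log2 ratio of si-RBCK1 #2 over si-RBCK1 #1 of 1.35 (0.85 to 1.87). With libraries scaled to equal medians or equal totals, ATP6V0D1 was past 1.5-fold lower than si-Control with si-RBCK1 #2, at -0.62 and -0.60.

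The e subunits are small membrane proteins of V0. ATP6V0E1 (chromosome 5, 172410763 to 172461900) was at 153 RPKM with si-Control, 239 with si-RBCK1 #1 and 199 with si-RBCK1 #2, with log2 ratios of 0.64 and 0.37. ATP6V0E2, a form enriched in brain, was at 8.10, 11.7 and 12.9 RPKM, with log2 ratios of 0.49 and 0.61. Both e genes were higher in both siRNA libraries, and ATP6V0E1 made up 93.9% to 95.3% of their sum. With libraries scaled to equal total RPKM, the ATP6V0E1 log2 ratio with si-RBCK1 #1 was 0.58, just under 1.5-fold.

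The proteolipid genes were also above the control, by less than 1.5-fold. ATP6V0C, which encodes the c subunit that makes up most of the ring, was at 148 RPKM with si-Control, 180 with si-RBCK1 #1 and 197 with si-RBCK1 #2. ATP6V0B, the c″ subunit of the same ring, was at 36.4, 43.2 and 41.1 RPKM. Across the 8 expressed V0 genes, 6 were higher in each comparison, where 51.5% (si-RBCK1 #1) and 53.5% (si-RBCK1 #2) of all expressed genes were. They were not the same genes, as ATP6V0D1 was higher with si-RBCK1 #1 only and ATP6V0A4 with si-RBCK1 #2 only. With libraries scaled to equal medians or equal totals, the count with si-RBCK1 #1 was 5. The median log2 ratio of the V0 genes was 0.26 with si-RBCK1 #1 and 0.13 with si-RBCK1 #2, beside 0.02 and 0.03 over all genes. Across the 9 expressed V1 genes the medians were -0.03 and -0.06.

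The a subunit forms the proton path and directs the pump to particular membranes. ATP6V0A1 was at 13.1 RPKM with si-Control, 13.1 with si-RBCK1 #1 and 13.9 with si-RBCK1 #2, while ATP6V0A2, a form of the Golgi and endosomes, was at 4.69, 3.12 and 3.23 RPKM. ATP6V0A2 was thus lower in both siRNA libraries, with log2 ratios of -0.47 and -0.43. The a3 form is encoded by TCIRG1, which is not matched by the naming rule and is known from lysosomes and osteoclasts. TCIRG1 was at 19.7, 25.1 and 31.8 RPKM (log2 ratios 0.33 and 0.66). Its share of the summed a level was 51.3% with si-Control, 59.3% with si-RBCK1 #1 and 63.6% with si-RBCK1 #2, and that of ATP6V0A2 was 12.2%, 7.38% and 6.45%.

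Summed over the forms of each subunit, the levels were far from equal within a library. In si-Control they ran from 15.1 RPKM for D and 16.8 for A to 89.9 for E and 89.7 for F in V1, and from 36.4 for c″ to 161 for e in V0. Subunit C was at 32.9 RPKM with si-Control and 30.2 with si-RBCK1 #2, above D and A. With si-RBCK1 #1 it was at 12.4 RPKM and had the lowest level of the V1 subunits in that library, below D at 16.5 and A at 19.6. Copies per complex differ between subunits, so these levels are not a ratio of complexes.

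**Figure D3:**
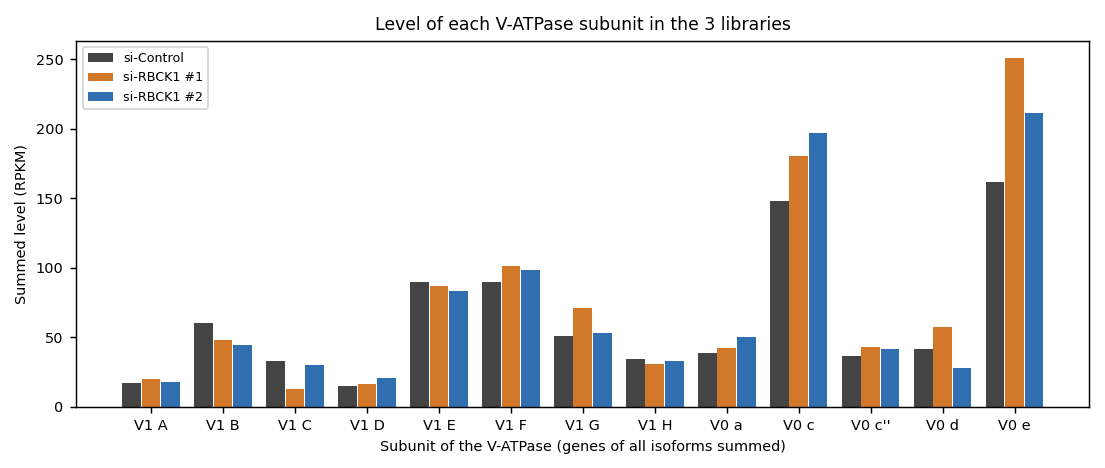
Level of each V-ATPase subunit in RPKM, with the genes of all forms summed (TCIRG1 included in V0 a), in the 3 libraries with 1 bar each and no error bars. Subunit C is lowest with si-RBCK1 #1 at 12.4 RPKM, and subunit d is highest with si-RBCK1 #1 at 57.2 and lowest with si-RBCK1 #2 at 28.0.

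Of the accessory proteins, ATP6AP1 and ATP6AP2 take part in assembly of the pump, and the latter is also the (pro)renin receptor. ATP6AP1 was at 55.3 RPKM with si-Control, 58.1 with si-RBCK1 #1 and 59.4 with si-RBCK1 #2, and ATP6AP2 was at 71.2, 63.5 and 62.5 RPKM. Their log2 ratios lay between -0.18 and 0.10. ATP6AP1L, an ATP6AP1-like gene, was at 2.72, 0.622 and 0.973 RPKM, on 236, 59 and 83 reads, with log2 ratios of -1.20 and -0.92. It was low in both siRNA libraries. On reads without the pseudocount the log2 ratios were -2.13 (-2.57 to -1.71) and -1.48 (-1.86 to -1.12), while a pseudocount of 5 RPKM gave -0.46 and -0.37, under 1.5-fold. ATP6AP1L passed the expression filter through si-Control.

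Cathepsin mRNA was dominated by CTSD, the main aspartic protease of lysosomes. CTSD (chromosome 11, 1773982 to 1785222, minus strand) was at 629 RPKM with si-Control, 472 with si-RBCK1 #1 and 574 with si-RBCK1 #2, on 49277, 40560 and 44322 reads. It was lower in both siRNA libraries, by less than 1.5-fold, with log2 ratios of -0.41 and -0.13. Its share of the summed level of the 15 cathepsins was 62.4%, 53.0% and 58.2%. That sum was 1007, 891 and 987 RPKM, and without CTSD it was 378, 419 and 413 RPKM, so the lower sums in the siRNA libraries were those with CTSD included.

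Among the cysteine cathepsins, the endopeptidase CTSL and its close relative CTSV were higher in both siRNA libraries. CTSL (chromosome 9, 90340974 to 90346384) was at 33.5 RPKM with si-Control, 55.7 with si-RBCK1 #1 and 44.6 with si-RBCK1 #2, on 1061, 1932 and 1390 reads, with log2 ratios of 0.72 and 0.40. CTSV (chromosome 9, 99791959 to 99801925), known from thymus and skin, was at 0.949, 2.04 and 2.80 RPKM, on 40, 94 and 116 reads. Its log2 ratios were 0.64 and 0.96, and on reads they were 1.10 (0.55 to 1.67) and 1.56 (1.03 to 2.12). With a pseudocount of 5 RPKM the CTSV ratios were 0.24 and 0.39, under 1.5-fold. CTSV passed the expression filter through its siRNA libraries. The longest protein-coding transcripts of the 2 genes share 0 windows of 50 bases.

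The ubiquitous CTSB, which has both endopeptidase and dipeptidase activity, had the second highest level at 178 RPKM with si-Control, 207 with si-RBCK1 #1 and 203 with si-RBCK1 #2. CTSC, the dipeptidyl peptidase that activates serine proteases of leukocytes, was at 19.7, 27.3 and 22.8 RPKM. Both were above the control in both siRNA libraries by less than 1.5-fold. CTSZ, a carboxypeptidase, was at 73.2, 61.8 and 75.4 RPKM, and CTSH, an aminopeptidase, was at 5.40, 4.87 and 5.03 RPKM.

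Lower levels were seen for CTSS and CTSO. CTSS, an elastinolytic protease best known for invariant chain processing in antigen-presenting cells, was at 16.8 RPKM with si-Control, 12.7 with si-RBCK1 #1 and 10.5 with si-RBCK1 #2 (2543, 2102 and 1560 reads), with log2 ratios of -0.38 and -0.63. CTSO was at 11.2, 7.38 and 7.09 RPKM, with log2 ratios of -0.55 and -0.60. The smallest whole reads that fit its levels were 174, 125 and 108, for a length of 419 bases. Its longest protein-coding transcript has 2954 bases, so the true reads may be a multiple of these. CTSS and CTSO were lower in both siRNA libraries, and the limit of 1.5-fold was passed with si-RBCK1 #2. CTSF was at 8.69, 5.81 and 7.51 RPKM. CTSK, the collagen-degrading protease of osteoclasts, was at 1.36, 0.656 and 1.67 RPKM on 91, 48 and 110 reads, low with si-RBCK1 #1 alone. The macrophage markers stood at a summed 0.265, 0.534 and 0.323 RPKM beside these values of CTSS.

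CTSA, a serine carboxypeptidase that protects other lysosomal hydrolases, was at 28.3 RPKM with si-Control, 33.1 with si-RBCK1 #1 and 32.1 with si-RBCK1 #2. It overlaps PLTP, which lies on the other strand and was at 84.1, 82.7 and 94.0 RPKM. The libraries were made with a directional kit, and the strand setting of the counting is not given in the sources used here, so reads of the 2 genes may not be separated. Of the other expressed genes, CTSD overlaps an antisense and a sense intronic RNA at 3.20 to 10.2 RPKM, which is small beside its own level.

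By counting error alone, the interval of the read ratio left out 0 for 28 of the 32 genes with si-RBCK1 #1 and for 25 with si-RBCK1 #2. These intervals do not cover differences between cultures or transfections. The same count was not made over all expressed genes, so nothing about the families is read from the 28 and 25. The 7 expressed genes with CACGTG in the promoter had a median of 0.24 in the log2 ratio with si-RBCK1 #1 (5 higher) and of 0.04 with si-RBCK1 #2 (4 higher). The 14 expressed genes whose promoter lacks it had medians of 0.04 (8 higher) and 0.09 (10 higher). Of all expressed genes, 51.5% were higher with si-RBCK1 #1 and 53.5% with si-RBCK1 #2.

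The other genes of the lysosome were described by lists chosen by function. Of 40 hydrolases other than cathepsins, 37 were expressed, with median log2 ratios of -0.04 and -0.09. With si-RBCK1 #1, 4 of them were at least 1.5-fold higher and 3 lower, and with si-RBCK1 #2, 1 was higher and 1 lower. Of all expressed genes, 12.1% were higher and 11.6% lower at this limit with si-RBCK1 #1, and 11.3% and 9.32% with si-RBCK1 #2. GLA, the alpha-galactosidase deficient in Fabry disease, was at 14.9 RPKM with si-Control, 42.7 with si-RBCK1 #1 and 30.5 with si-RBCK1 #2, with log2 ratios of 1.46 and 0.99. CTBS, a chitobiase, had log2 ratios of -0.77 and -0.94, and AGA, the aspartylglucosaminidase, of -0.60 and -0.55.

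Of 28 lysosomal membrane proteins and transporters, 26 were expressed, with medians of -0.05 and -0.07. At 1.5-fold, 0 were higher and 2 lower with si-RBCK1 #1 (12.1% and 11.6% of all genes), and 2 were higher and 1 lower with si-RBCK1 #2 (11.3% and 9.32%). SCARB2, the receptor that carries glucocerebrosidase to lysosomes, was at 74.1 RPKM with si-Control, 49.6 with si-RBCK1 #1 and 51.9 with si-RBCK1 #2. CLN3, a lysosomal membrane protein, had log2 ratios of 0.55 and 0.43, both under 1.5-fold.

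Mannose 6-phosphate sorting delivers new hydrolases, cathepsins included, to lysosomes. Of its 16 listed genes, 15 were expressed, with medians of 0.17 and 0.15. At 1.5-fold, 4 were higher and 1 lower with si-RBCK1 #1 (12.1% and 11.6% of all genes), and 4 were higher and 0 lower with si-RBCK1 #2 (11.3% and 9.32%). AP1S1 and AP1M1, subunits of the AP-1 clathrin adaptor, were at 41.3 and 22.7 RPKM with si-Control, 77.8 and 37.4 with si-RBCK1 #1, and 69.7 and 38.0 with si-RBCK1 #2. GNPTAB, the phosphotransferase that makes the sorting tag, was at 5.42, 9.25 and 9.68 RPKM. All 3 were at least 1.5-fold higher than si-Control in each siRNA library, but the list did not move as a whole. At any size, 10 of the 15 were higher and 5 lower with si-RBCK1 #1 (51.5% and 48.4% of all genes). With si-RBCK1 #2, 11 were higher and 4 lower (53.5% and 46.4%).

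Of 20 MiT/TFE factors and their regulators, 19 were expressed, with medians of -0.07 and 0.03, and 0 were at least 1.5-fold higher in either comparison (12.1% and 11.3% of all genes). At that limit 2 were lower with si-RBCK1 #1 (11.6% of all genes) and 1 with si-RBCK1 #2 (9.32%). TFEB was at 3.23 RPKM with si-Control, 4.59 with si-RBCK1 #1 and 5.03 with si-RBCK1 #2, and TFE3 was at 43.6, 41.5 and 35.2 RPKM. FNIP1, a partner of folliculin in the control of these factors, was at 19.9, 10.8 and 12.8 RPKM. The Rag GTPase RRAGD had log2 ratios of -0.71 and -0.47, and RRAGA had 0.42 and 0.41.

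Of 14 V-ATPase partners outside the naming rule, 13 were expressed, with medians of -0.03 and 0.09. At 1.5-fold, 0 were higher and 2 lower with si-RBCK1 #1 (12.1% and 11.6% of all genes), and 1 was higher and 3 lower with si-RBCK1 #2 (11.3% and 9.32%). OXR1, a TLDc protein of a family that binds the V-ATPase, was at 17.7 RPKM with si-Control, 6.45 with si-RBCK1 #1 and 6.78 with si-RBCK1 #2, with log2 ratios of -1.33 and -1.26. The other TLDc genes chosen by the rule differed in direction, with log2 ratios of 0.53 and 0.35 for TLDC1 and of -0.34 and -0.72 for NCOA7. Of 9 cystatins, the inhibitors of cysteine cathepsins, 2 were expressed. CSTB, the cytosolic stefin B, had log2 ratios of 0.20 and 0.17, and CST3, the secreted cystatin C, had 0.13 and 0.53, all under 1.5-fold.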

How the data were processed

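The 3 libraries (1 per condition) hold RNA of Caki-1 cells taken 48 h after siRNA transfection. The general transfection paragraph of the methods gives 10 nmol/L siRNA. The authors deposited 1 RPKM value per gene and library, with gene positions. The submitters' processing notes name FastQC, Trimmomatic, TopHat2, HTSeq and hg19. The gene annotation and the strand setting of the counting are not given in the sources used here. The authors' log2 fold change and p-value columns of the deposited table, from their own comparison, were not used.

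Log2 ratios were computed after adding 1 RPKM, where the mean level was 1 RPKM or more. Library totals came from RNAs no longer than 200 nt, and the smallest whole reads per gene from lengths no longer than 50000 nt, with a tolerance of 0.001 of a read. Reads were found for 40 of 40 genes of the 2 families. They are the smallest that fit, so the true reads may be a multiple of them, with narrower intervals. Intervals (95%) are exact Clopper-Pearson intervals of the read ratio and cover counting error only. No test across genes was made. Limits were 1.5-fold and 2-fold. In the table, 1 entry was not numeric. The steps were tested on simulated data.

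The genes, lists and limits were chosen with earlier results of these data known. All genes of the 2 families may be named, with RBCK1, TCIRG1, TFEB and TFE3 (the last 2 chosen after their values were seen). From each list the 3 genes with the largest smaller log2 ratio in size were named, among expressed genes with 1 sign in both comparisons (cystatins had 2, and 1 gene so chosen is not reported here). Alternatives were pseudocounts of 0.1 and 5 RPKM, libraries set to the same median or the same total, a filter at 5 RPKM or none, a background of protein-coding genes, means in place of medians and, chosen after seeing the data, recovered reads without a pseudocount. Promoters are from RefSeq (GRCh38.p14) and transcripts from the GENCODE annotation supplied. Protein sequences were not used. Scripts ran under Python 3.11.15 with matplotlib 3.10.9, scipy 1.17.1, numpy 2.4.6 and pandas 2.3.3.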

Additional observations from a re-analysis of the deposited data

Results flagged for a closer look

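ATP6V0D1, the d subunit of the V-ATPase, moved in opposite directions with the 2 siRNAs. Its log2 ratio to si-Control was 0.45 with si-RBCK1 #1 and -0.57 with si-RBCK1 #2, from 41.5 RPKM with si-Control, 57.1 with si-RBCK1 #1 and 27.7 with si-RBCK1 #2. With 1 library per condition, the difference between the siRNAs was not tested. Intervals of counting error alone lay on opposite sides of 0.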

How the results depend on the processing

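Of 320 log2 ratios of single genes under the alternatives, 291 moved by less than counting error, 29 moved by more and 0 of a gene past 1.5-fold changed sign. Counting error is wide for genes at low levels, whose ratios depended on the pseudocount. With 0.1 and 5 RPKM, ATP6AP1L was at -1.97 and -0.46 with si-RBCK1 #1, CTSV at 1.47 and 0.39 with si-RBCK1 #2, and ATP6V1E2 at -0.93 and -0.26 with si-RBCK1 #1. Values near 0 changed sign for 3 of 64 gene ratios (ATP6V0A1 with si-RBCK1 #1, ATP6V1G1 and CTSZ with si-RBCK1 #2). The family medians lay close to 0 and several changed sign. With means in place of medians, the V-ATPase value was -0.0629 with si-RBCK1 #1 and -0.0451 with si-RBCK1 #2, the value of all 32 genes was -0.0122 with si-RBCK1 #2, and the cathepsin value was -0.0404 with si-RBCK1 #1. With libraries set to the same total the V-ATPase median with si-RBCK1 #1 was -0.0149. With a mean of at least 5 RPKM, the medians with si-RBCK1 #1 were 0.0955 for both families, 0.148 for the V-ATPase and 0.0470 for V1, and the cathepsin and cysteine cathepsin medians with si-RBCK1 #2 were -0.0214 and -0.0214. At that filter 3 genes were at least 1.5-fold changed with si-RBCK1 #1 and 3 with si-RBCK1 #2, in place of 6 and 5. With a pseudocount of 5 RPKM these counts were 3 and 0, beside 10.3% and 8.64% of all genes. With 0.1 RPKM they were 8 and 6 of the 32, beside 30.65% and 27.49% of all genes. At 2-fold, 0.1 RPKM gave 3 and 2 in place of 2 and 0, and the share of all genes was not computed there. Nothing about the families is read from these counts. The widest intervals of counting error were those of CTSV, CTSK, ATP6AP1L, ATP6V1E2, ATP6V0A4 and CTSO. That of CTSO rests on the smallest whole reads that fit, for a length of 419 bases, and may be too wide. No paired analysis was possible because the conditions hold 1 library each.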
